A study of Mus musculus with 9 samples.

Results

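The genes described here are 10 members of the ovarian steroid synthesis pathway: the cholesterol carrier Star, the enzymes Cyp11a1, Hsd3b1, Cyp17a1, Cyp19a1 and Hsd17b1, and the electron carriers Fdx1, Fdxr, Por and Cyb5a. Each was found by its symbol in a table of 33450 gene rows, where RefSeq transcript identifiers name the genes, and all 10 had a row. Of these, 9 had a row of their own, while the row of Hsd17b1 also held Coasy, Mlx and Naglu. RNA of whole ovaries was sequenced from 9 C57BL/6J mice, an inbred strain, aged 15 weeks, in 3 groups of 3 animals. HFOB mice became obese on 10 weeks of a diet with 60% fat. HFLN mice remained lean on that diet over the same time. Control mice received standard chow with 16% fat. HFOB and HFLN were thus formed by how the animals responded to the diet and not by assignment, and the sources used here give neither the weight that divided them nor the stage of the oestrous cycle.

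Steroid synthesis starts when Star moves cholesterol to the inner mitochondrial membrane, where Cyp11a1 cleaves its side chain to give pregnenolone. Hsd3b1 turns pregnenolone into progesterone, and Cyp17a1, in the endoplasmic reticulum of theca cells, makes androgens. Granulosa cells take up these androgens, aromatize them through Cyp19a1 and reduce estrone to estradiol through Hsd17b1. Cyp11a1 receives its electrons from NADPH by way of Fdxr and then Fdx1, while Cyp17a1 and Cyp19a1 receive theirs from Por, and Cyb5a promotes the lyase step of Cyp17a1.

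All values are FPKM as deposited by the authors, a level set against transcript length and sequenced fragments, with 1 value per group. Each has a deposited lower and upper bound, given here in brackets as the interval. Single animals were not analysed here. There is therefore no SD, test or p-value for any difference, how many animals share it is unknown, and so is the read depth per sample. Log2 folds are on the log2(FPKM + 1) scale, which understates differences of low genes. A row was called where that fold was at least 2 in either direction and the intervals of both groups did not overlap. Rows of at least 1 FPKM numbered 16172 in HFOB, 16310 in HFLN and 16148 in Control. Dividing by the summed FPKM of protein-coding rows, an alternative scale, would add about 0.09 to every log2 fold of HFOB against Control and about 0.22 to every log2 fold of HFLN against Control. In whole ovary, fewer cells of a type and less RNA per cell cannot be told apart.

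RefSeq promoter windows, 250 bases before to 50 after an annotated start in GRCm38.p6, were found for 6 of the members, in 9 windows. Of the members, 4 are shown: Fdx1 and its reductase Fdxr, which stood on opposite sides of Control in both diet groups, Cyp19a1 at the annotated start nearest its coding part, and Hsd3b1 as a member whose levels lay close together. Each line gives the 160 bases before the start, read 5′ to 3′ on the minus strand, on which all 4 genes lie. Capitals mark matches on either strand to any of the motifs searched. These were a core and a longer element for NR5A1 and NR5A2, a GATA factor element, a TATA element, a GC box and a cAMP response element with its shorter form, and their letters follow the sequences.
Fdx1, chr9:51963603-51963762: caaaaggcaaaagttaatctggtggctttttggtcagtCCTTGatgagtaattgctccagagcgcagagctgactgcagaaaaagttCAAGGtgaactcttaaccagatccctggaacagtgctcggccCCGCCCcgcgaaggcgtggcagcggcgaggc
Fdxr, chr11:115276970-115277129: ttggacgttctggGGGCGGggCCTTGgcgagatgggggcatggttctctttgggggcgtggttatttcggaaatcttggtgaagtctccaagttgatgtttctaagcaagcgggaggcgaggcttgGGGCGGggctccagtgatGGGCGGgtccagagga
Cyp19a1, chr9:54193744-54193903: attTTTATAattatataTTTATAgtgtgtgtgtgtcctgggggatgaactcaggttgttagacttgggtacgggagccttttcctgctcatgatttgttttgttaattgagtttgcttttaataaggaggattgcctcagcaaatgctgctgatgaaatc
Hsd3b1, chr3:98859795-98859954: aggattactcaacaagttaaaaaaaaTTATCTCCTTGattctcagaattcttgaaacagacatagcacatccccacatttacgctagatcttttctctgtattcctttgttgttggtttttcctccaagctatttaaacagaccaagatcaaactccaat

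Over the full windows, the NR5A core CAAGG stood in 6 of the 9, belonging to 5 of the 6 members, and in 52.1% of 32851 windows of the same length. In the stretch shown, Fdx1 holds it at 122 and at 73 bases before its start, Fdxr at 139 and Hsd3b1 at 128. The longer element CAAGGNCA, which contains the core, stood in 1 of the 9 windows, at another start of Cyp19a1, and in 6.71% of all windows. The cAMP response element TGACGTCA was in 0 of the 9 windows and in 1.79% of all. Its shorter form, the first 5 letters of that element, was in 20.8% of all windows. Among the 9 windows, the shorter form stood 50 bases before a start of Cyp11a1. The GATA element AGATAA stood in 11.2% of windows and, of the sequences shown, in Hsd3b1, where it adjoins the core. The TATA element TATAAA stood in 13.6% of windows and, of those shown, in Cyp19a1. The GC box GGGCGG stood in 35.7% of windows and, of those shown, in Fdx1 and, in 3 copies, in Fdxr. Windows not shown held the TATA element at another start of Cyp19a1, and GC boxes in Por and Cyp11a1. All motifs were sought on both strands. A match describes the letters of a window and not a bound site.

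Among the steps that theca, granulosa and luteal cells share, the carrier Star had its highest value in lean mice on the diet, and the enzymes Cyp11a1 and Hsd3b1 lay close together across groups. Star (chromosome 8, 25808474 to 25815982 in mm10) stood at 168.6 FPKM in HFOB (86.6 to 250.6), 230.5 FPKM in HFLN (84.1 to 377) and 147.3 FPKM in Control (83.6 to 211). The HFLN interval spanned almost all of the other intervals, so the groups overlapped. Log2 folds were 0.19 for HFOB against Control, 0.64 for HFLN against Control and -0.45 for HFOB against HFLN. Of 7213 protein-coding rows with a mean of at least 10 FPKM, 0.263% had a log2 fold of HFLN against Control at least as high as that of Star.

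Cyp11a1 (chromosome 9, 57998024 to 58027031) stood at 3119.7 FPKM in HFOB (0 to 8367), 3054 FPKM in HFLN (0 to 7239) and 3608 FPKM in Control (0 to 10568). It ranked 6 among protein-coding rows in HFOB, 3 in HFLN and 4 in Control. Hsd3b1 stood at 2949 FPKM in HFOB (0 to 7877), 2831 FPKM in HFLN (0 to 6417) and 3111 FPKM in Control (0 to 8415), and ranked 8, 4 and 5 in these groups. Lower bounds of 0 mean that no lower value in a diet group could have separated either gene from Control. The log2 folds of Cyp11a1 were -0.21 for HFOB and -0.24 for HFLN against Control, the second of which comes to about -0.02 on the protein-coding scale. Hsd3b1 had log2 folds of -0.08 for HFOB and -0.14 for HFLN against Control, which turn to 0.02 and 0.08 on the protein-coding scale.

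Hsd3b1 belongs to a family of close copies on chromosome 3, and 5 of 8 other family members listed were under 1 FPKM in every group. Hsd3b8 and Hsd3b9 had no row. Hsd3b7, a bile acid synthesis enzyme that shared its row with Setd1a, cannot be read alone, and that row stood at 44.3 FPKM in HFOB, 44.3 FPKM in HFLN and 48.6 FPKM in Control. Hsd3b6, which acts in adrenal and Leydig cells of mice, stood at 0.471 FPKM in HFOB, 0.298 FPKM in HFLN and 0.355 FPKM in Control. Hsd3b2, Hsd3b3, Hsd3b4 and Hsd3b5 stayed between 0 and 0.104 FPKM in all groups. The span of the Hsd3b1 row (chromosome 3, 98852106 to 98893230) was also that of 2 rows of its neighbour Hao2, a peroxisomal hydroxyacid oxidase. The higher of these stood at 59.5 FPKM in HFOB, 65.8 FPKM in HFLN and 54.8 FPKM in Control. The sources used here do not say how reads were divided between copies and neighbours, so the level of Hsd3b1 is uncertain to that extent.

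**Figure D1:**
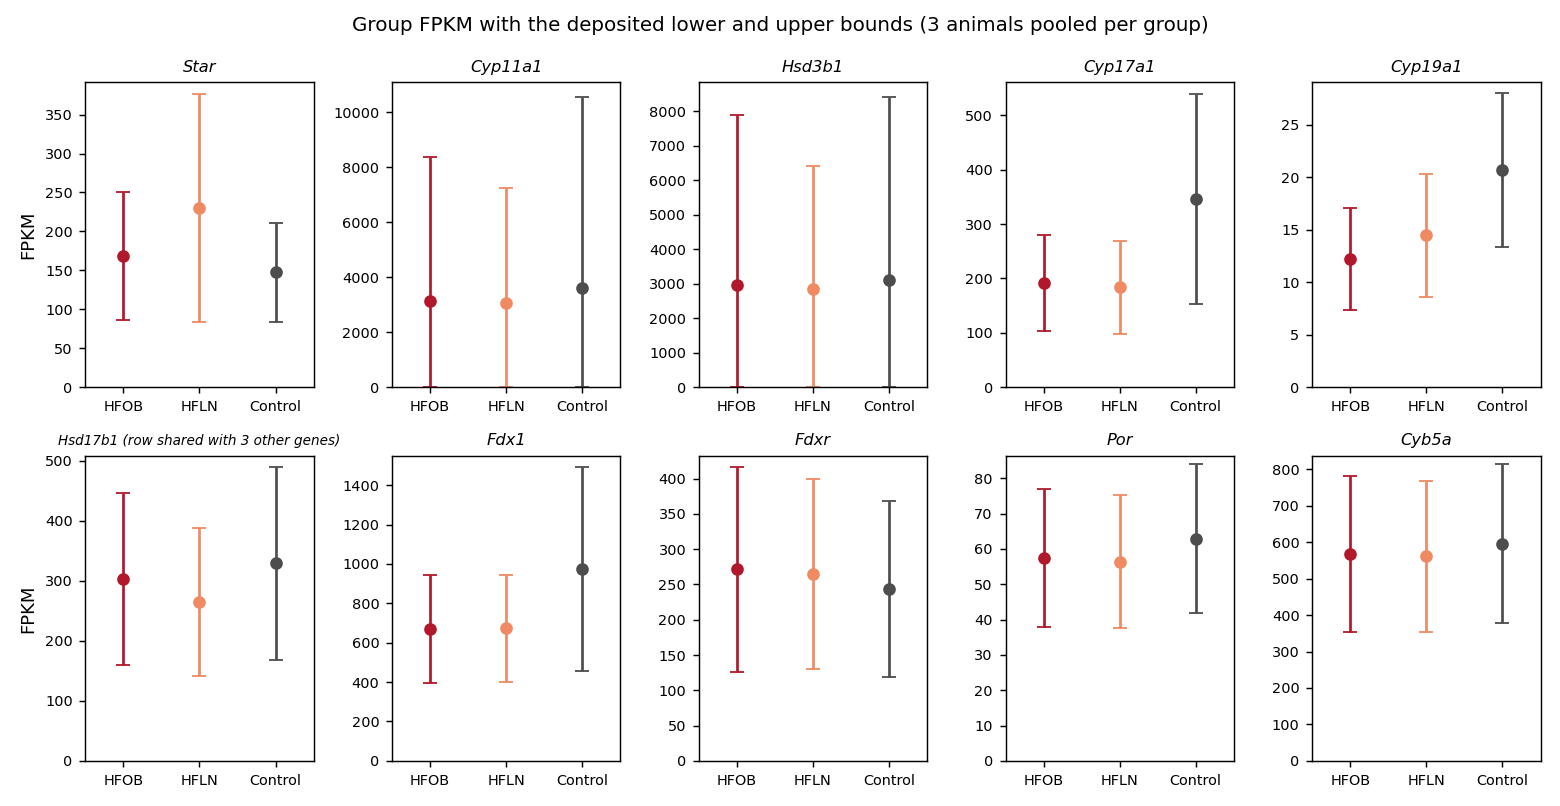
FPKM of each member (vertical axes from 0) in HFOB, HFLN and Control, left to right. Points are the group values, each of 3 pooled animals, and bars run to the deposited bounds; the intervals of all 3 groups overlap for every member, and Cyp11a1 and Hsd3b1 have lower bounds of 0.

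The theca step had the widest difference. Cyp17a1 (chromosome 19, 46667165 to 46673000) stood at 191.2 FPKM in HFOB (102.7 to 279.6), 183.5 FPKM in HFLN (97.5 to 269.4) and 346 FPKM in Control (153.8 to 539). Both diet groups lay near each other and below Control, and their intervals overlapped that of Control. The log2 fold was -0.85 for HFOB and -0.91 for HFLN against Control, or a difference in FPKM of -44.8% and -47.0%. Of protein-coding rows with a mean of at least 10 FPKM, 0.458% were at least as low in HFOB and 0.444% in HFLN against the same Control value, which enters both comparisons. Given the relative width of its own interval, Cyp17a1 would have had to stand below 105.1 FPKM in HFOB or 104.7 FPKM in HFLN for the intervals to separate from Control.

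Cyb5a, the cytochrome that promotes androgen formation by Cyp17a1 and is also widely used in lipid metabolism, differed least across groups, its highest value being 1.06 times its lowest. It stood at 567.8 FPKM in HFOB (354 to 781), 560.8 FPKM in HFLN (354 to 768) and 595 FPKM in Control (378 to 813). Its log2 folds of -0.07 for HFOB and -0.09 for HFLN against Control turn to 0.02 and 0.13 on the protein-coding scale.

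The granulosa step Cyp19a1 (aromatase, chromosome 9, 54165937 to 54268164) was the least abundant member in every group. It stood at 12.2 FPKM in HFOB (7.36 to 17.03), 14.5 FPKM in HFLN (8.60 to 20.3) and 20.7 FPKM in Control (13.3 to 28.0). Both diet values lay below Control, and the intervals of HFOB and Control overlapped over 3.69 FPKM, those of HFLN and Control over 6.96 FPKM. Log2 folds were -0.72 for HFOB against Control, -0.49 for HFLN against Control and -0.23 for HFOB against HFLN. Of protein-coding rows of at least 10 FPKM on average, 0.693% were at least as low for HFOB against Control and 1.73% for HFLN against Control.

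No level can be given for Hsd17b1 alone, because its row merged 4 neighbouring genes (chromosome 11, 101070094 to 101095435). Naglu encodes a lysosomal glucosaminidase, Coasy an enzyme of coenzyme A synthesis and Mlx a transcription factor that pairs with MondoA and ChREBP. The merged row stood at 303 FPKM in HFOB (160.1 to 447), 264 FPKM in HFLN (140.6 to 387) and 329 FPKM in Control (168.2 to 490.1). Its log2 folds were -0.12 for HFOB and -0.32 for HFLN against Control, and the intervals overlapped.

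The mitochondrial electron carriers differed from each other. Fdx1 (adrenodoxin, chromosome 9, 51943025 to 51963602), which hands electrons to Cyp11a1, stood at 668 FPKM in HFOB (395 to 942), 673 FPKM in HFLN (403 to 943) and 974 FPKM in Control (456 to 1493). The diet groups were nearly equal and lay inside the Control interval except for their lower ends. Log2 folds were -0.54 for HFOB and -0.53 for HFLN against Control, and 1.41% of protein-coding rows of at least 10 FPKM on average were at least as low in either comparison. Fdxr, the reductase that feeds Fdx1 (chromosome 11, 115267992 to 115282758, a span that also reaches into Fads6), stood at 271 FPKM in HFOB (125.6 to 417), 265 FPKM in HFLN (129.6 to 400.2) and 243.5 FPKM in Control (118.3 to 369). Its log2 folds were 0.16 for HFOB and 0.12 for HFLN against Control, with intervals that coincided almost whole.

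Por, the reductase of the endoplasmic reticulum that serves Cyp17a1, Cyp19a1 and many other enzymes, had its highest value at 1.12 times its lowest. It (chromosome 5, 135670095 to 135735326) stood at 57.4 FPKM in HFOB (37.9 to 76.9), 56.4 FPKM in HFLN (37.5 to 75.2) and 62.9 FPKM in Control (41.8 to 84.0). Its log2 fold was -0.13 for HFOB against Control, and that of -0.16 for HFLN against Control turns to 0.06 on the protein-coding scale.

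HFOB against Control asks how ovaries of mice that became obese on the diet differ from those on chow. The call rule was met by 0 of the 10 members, against 0.366% of 16929 rows tested, so the count carries no result about the members. Values were lower in HFOB than in Control for 8 members and higher for 2, Star and Fdxr, with a median log2 fold of -0.12, against -0.01 over all rows tested. Of 7211 protein-coding rows with a mean of at least 10 FPKM, 4267 were lower in HFOB and 2944 higher, with a median of -0.03. HFLN against Control, which uses the same Control values, asks this for mice that stayed lean on the diet. Again 0 of 10 members were called, against 0.283% of 16932 rows. Values were lower in HFLN for 8 members and higher for the same 2, with a median log2 fold of -0.20, against 0.00037 over all rows. Of 7213 protein-coding rows with a mean of at least 10 FPKM, 4316 were lower and 2897 higher, with a median of -0.03. Without the merged row of Hsd17b1, 7 of 9 members were lower in HFLN, with a median of -0.16. On the protein-coding scale the median of the 10 members was 0.02 in HFLN and -0.03 in HFOB. With the protein-coding median set to 0 instead, it was -0.20 in HFLN and -0.11 in HFOB. How far the list lay below Control thus depended on the scale chosen in both diet groups. Cyp17a1, Cyp19a1 and Fdx1 stayed below Control in both comparisons and Star above it.

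HFOB against HFLN sets the 2 responses to one diet side by side. Of the members 0 of 10 were called, against 0.195% of 16931 rows. The log2 folds of 8 members lay between -0.23 and 0.06. The others were Star at -0.45 and the merged row of Hsd17b1 at 0.20. The median was 0.03, against -0.01 over all rows and 0.007 over protein-coding rows of at least 10 FPKM on average. The median of the members becomes -0.09 on the protein-coding scale, where Cyp11a1, Hsd3b1, Cyp17a1, Fdxr, Por and Cyb5a all change sign at sizes of at most 0.11.

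**Figure D2:**
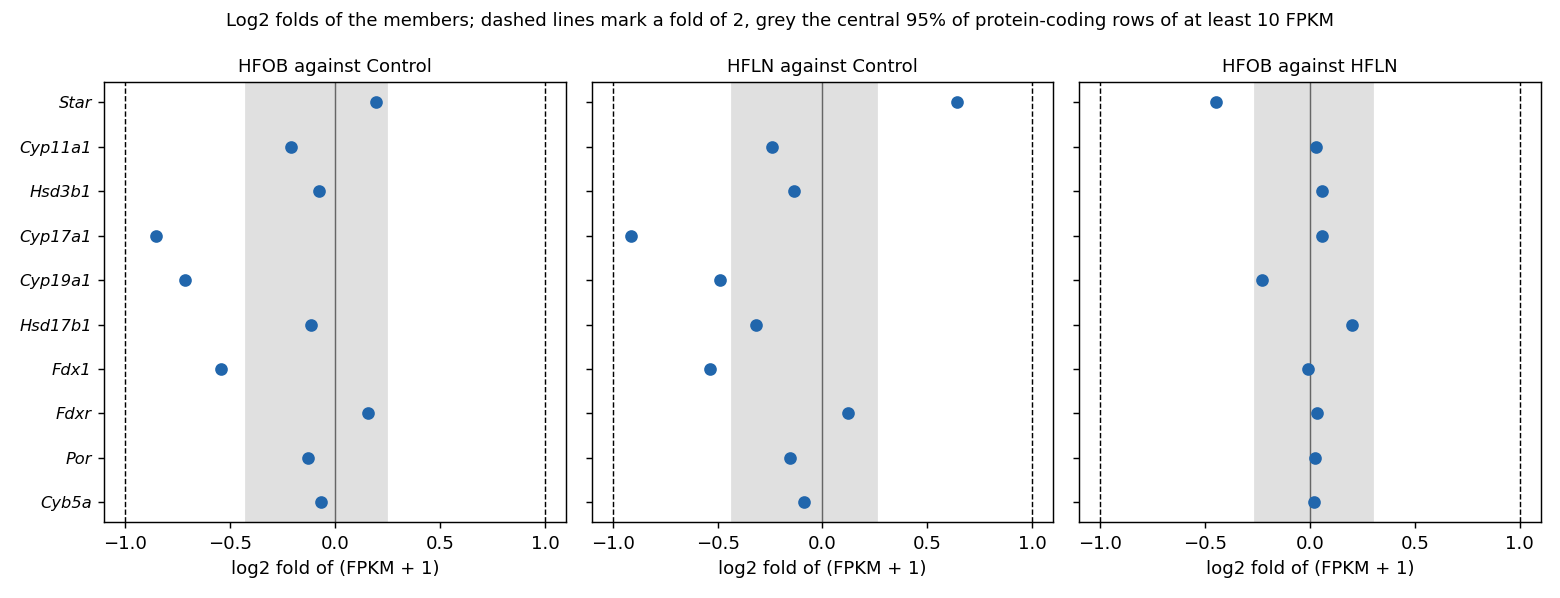
Log2 folds of the 10 members on the log2(FPKM + 1) scale (horizontal axes) in 3 comparisons, with grey bands for the central 95% of protein-coding rows of at least 10 FPKM on average and dashed lines at a fold of 2. Cyp17a1, Cyp19a1 and Fdx1 lie left of the band against Control in both diet groups, and no member reaches a fold of 2; Hsd17b1 stands for its merged row.

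No member reached a fold of 2, and all intervals overlapped, so both demands of the call rule were unmet. For the 8 members other than Cyp11a1 and Hsd3b1, an interval reached from 33.4% to 63.5% of the value to either side. For Cyp11a1 it reached 168.2% in HFOB, 137.1% in HFLN and 192.9% in Control, and for Hsd3b1 167.1%, 126.6% and 170.5%. Protein-coding rows of at least 1000 FPKM had a median of 61.3% in HFOB, 57.3% in HFLN and 65.7% in Control, and in 9 of 37, 7 of 33 and 10 of 43 of these rows the lower bound was 0. At which confidence level the bounds were set, the sources used here do not say. Separation of the deposited intervals at any fold was met by 0 of 10 members in each comparison, against 0.372% of rows for HFOB and 0.283% for HFLN against Control and 0.207% for HFOB against HFLN. With every interval narrowed to 50% of its width and no demand on the fold, a choice made after the values were seen, Cyp17a1 and Cyp19a1 separated from Control in HFOB, where 2.04% of all rows did. Cyp17a1 alone separated in HFLN, where 2.21% of rows did. Between HFOB and HFLN 0 of 10 members separated, against 1.82% of rows.

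Ratios between members within a group do not depend on how groups were scaled. The ratio of Fdx1 to Fdxr was 2.46 in HFOB, 2.54 in HFLN and 4.00 in Control. The ratio of Cyp17a1 to its reductase Por was 3.33 in HFOB, 3.26 in HFLN and 5.51 in Control. The ratio of Cyb5a to Cyp17a1 was 2.97 in HFOB, 3.06 in HFLN and 1.72 in Control. The ratios of Cyp17a1 to Por and of Cyb5a to Cyp17a1 share Cyp17a1, so they are not independent of each other. In all 3 ratios, the diet groups lay close to each other and apart from Control, although the bounds of the members allow much wider ranges, for Fdx1 to Fdxr 0.948 to 7.49 in HFOB, 1.01 to 7.27 in HFLN and 1.24 to 12.6 in Control. The ratio of Cyp11a1 to Star also set the diet groups apart, at 18.5 in HFOB, 13.2 in HFLN and 24.5 in Control, but with a lower bound of 0 for Cyp11a1 it could lie anywhere up to 96.6 in HFOB, 86.1 in HFLN and 126.4 in Control. Some ratios lay close together. That of Cyb5a to Por was 9.90 in HFOB, 9.95 in HFLN and 9.47 in Control, and that of Cyp11a1 to Hsd3b1 was 1.06 in HFOB, 1.08 in HFLN and 1.16 in Control. The ratio of Cyp19a1 to Por was 0.213 in HFOB, 0.256 in HFLN and 0.329 in Control. That of Cyp17a1 to Cyp19a1 was 15.7 in HFOB, 12.7 in HFLN and 16.8 in Control, so here HFOB lay nearer to Control than to HFLN.

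**Figure D3:**
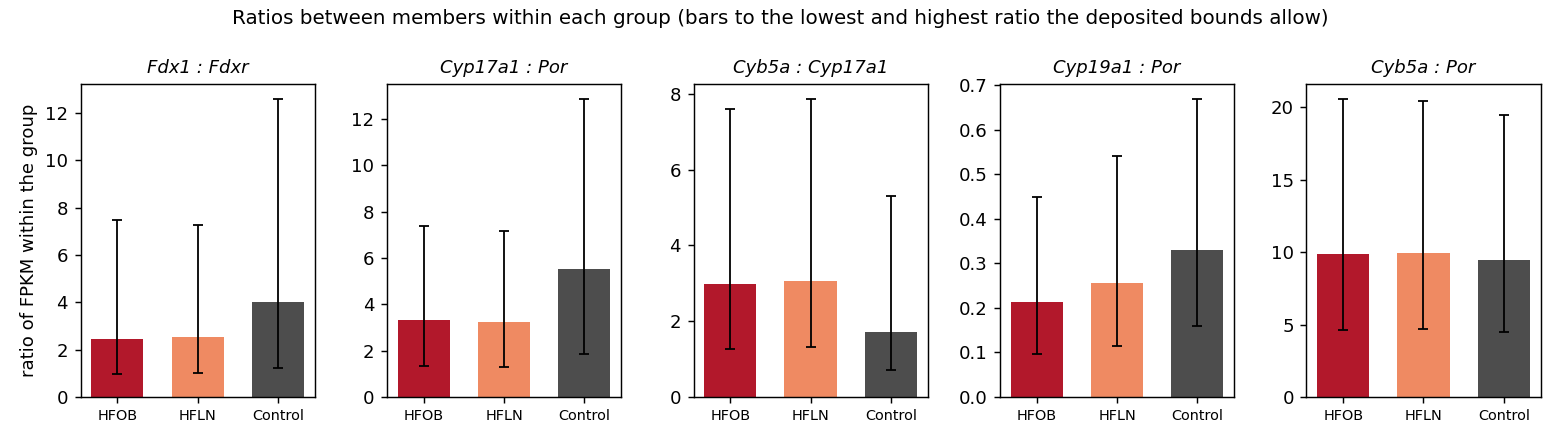
Ratios of FPKM between pairs of members (vertical axes from 0) within HFOB, HFLN and Control, left to right. Bars are ratios of group values and lines run to the lowest and highest ratio that the deposited bounds allow; Fdx1 to Fdxr and Cyp17a1 to Por are lower in both diet groups than in Control, within overlapping ranges.

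The order of levels, which FPKM allow to be compared per length, was nearly fixed. The merged row of Hsd17b1 takes a place in it. Cyp11a1, Hsd3b1, Fdx1 and Cyb5a were the most abundant members in that order in every group, and Por and Cyp19a1 the least. Cyp17a1 moved within the middle of this order: it was at place 7 in HFOB and 8 in HFLN, and at place 5 in Control. Star was at place 8 in HFOB, 7 in HFLN and 8 in Control. Neighbours in the order overlapped in their intervals, except that Por stood apart from Cyp19a1 in all groups, Star from Por in HFOB and Cyp17a1 from Por in HFLN.

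Other genes of the pathway were taken from lists chosen with earlier results of these data known, and only rows of their own with at least 1 FPKM were described. None of these pathway lists held a called row against Control. Beside the counts of lower genes below, 4267 of 7211 protein-coding rows with a mean of at least 10 FPKM were lower in HFOB. In HFLN 4316 of 7213 such rows were lower. The protein-coding scale would raise the folds of the lists against Control as it does those of the members. For cholesterol delivery, 11 genes were described, of which 9 were lower and 2 higher in HFOB, and 10 lower and 1 higher in HFLN, with medians of -0.10 and -0.08. Dbi, the acyl-CoA binding protein that is a ligand of Tspo, stood at 678 FPKM in HFOB, 616 FPKM in HFLN and 771 FPKM in Control. Tspo, an outer mitochondrial membrane protein, stood at 111.2 FPKM in HFOB, 92.3 FPKM in HFLN and 109.4 FPKM in Control. Stard4, a soluble sterol carrier, stood at 5.57 FPKM in HFOB, 6.86 FPKM in HFLN and 8.21 FPKM in Control, and Acsl4, a ligase for arachidonic acid, at 29.8 FPKM in HFOB, 36.1 FPKM in HFLN and 37.8 FPKM in Control.

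Of the 17beta-HSD family 7 were described, with 5 lower and 2 higher in each diet group. Hsd17b7, which acts in luteal estradiol formation and in cholesterol synthesis, stood at 63.1 FPKM in HFOB (37.4 to 88.8), 104.9 FPKM in HFLN (58.6 to 151.2) and 103.9 FPKM in Control (56.1 to 151.7). Hsd17b2, which oxidizes estradiol, stood at 4.78 FPKM in HFOB, 6.27 FPKM in HFLN and 7.18 FPKM in Control. Hsd17b10, a mitochondrial dehydrogenase, stood at 169.6 FPKM in HFOB, 145.7 FPKM in HFLN and 171.8 FPKM in Control. Hsd17b3, the testicular enzyme that forms testosterone, was under 1 FPKM in every group.

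Genes of electron and NADPH supply lay close to Control, with 13 described, medians of -0.004 in HFOB and 0.02 in HFLN against Control, and no log2 fold beyond 0.27 in size. Pgd, an enzyme of the pentose phosphate pathway, stood at 104.5 FPKM in HFOB, 94.5 FPKM in HFLN and 104.7 FPKM in Control. Me3, a mitochondrial malic enzyme, stood at 13.5 FPKM in HFOB, 10.97 FPKM in HFLN and 11.02 FPKM in Control. Nnt, a mitochondrial source of NADPH whose gene carries a deletion in C57BL/6J mice, stood at 22.5 FPKM in HFOB, 20.3 FPKM in HFLN and 18.6 FPKM in Control.

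Of the list of other enzymes that take electrons from Por, 8 were described, 6 of them lower and 2 higher in each diet group, with medians of -0.27 in HFOB and -0.16 in HFLN. The list holds Fdft1, the squalene synthase, which takes electrons from NADPH directly. Without Fdft1, a choice made after the values were seen, 5 of 7 were lower in each diet group, with medians of -0.22 in HFOB and -0.14 in HFLN. Hmox1, which breaks down haem, stood at 45.3 FPKM in HFOB (29.7 to 60.9), 45.8 FPKM in HFLN (29.3 to 62.2) and 86.1 FPKM in Control (46.7 to 125.6). The sterol demethylase Cyp51 stood at 23.1 FPKM in HFOB, 30.6 FPKM in HFLN and 35.9 FPKM in Control. Fdft1 stood at 28.5 FPKM in HFOB (0 to 81.2), 30.3 FPKM in HFLN (0 to 98.9) and 36.0 FPKM in Control (0 to 91.5), so its intervals reached 0 in every group. Of other mitochondrial P450 enzymes only Cyp27a1, a sterol hydroxylase, was described, at 17.8 FPKM in HFOB, 15.7 FPKM in HFLN and 15.7 FPKM in Control.

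For steroid reduction, conjugation and inactivation, 8 genes were described, 4 lower and 4 higher in each diet group. Hsd11b2, which inactivates corticosterone, stood at 31.9 FPKM in HFOB, 38.3 FPKM in HFLN and 45.9 FPKM in Control, and Srd5a2, a steroid 5alpha-reductase, at 4.10 FPKM in HFOB, 3.94 FPKM in HFLN and 3.03 FPKM in Control. Of the regulators of steroidogenic transcription, 11 were described, with 6 lower and 5 higher in HFOB and 5 lower and 6 higher in HFLN. Cebpb, a factor induced by luteinizing hormone in granulosa cells, stood at 121.7 FPKM in HFOB (55.9 to 187.5), 84.5 FPKM in HFLN (31.9 to 137.1) and 186.1 FPKM in Control (42.8 to 329). Its log2 fold of -1.13 for HFLN against Control passed a fold of 2 with overlapping intervals. Nr0b1, a repressor of NR5A1, stood at 10.5 FPKM in HFOB (4.97 to 16.1), 6.87 FPKM in HFLN (2.86 to 10.9) and 6.50 FPKM in Control (2.65 to 10.3). Crem, a factor of the cAMP response, stood at 8.62 FPKM in HFOB, 9.31 FPKM in HFLN and 11.8 FPKM in Control.

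**Figure D4:**
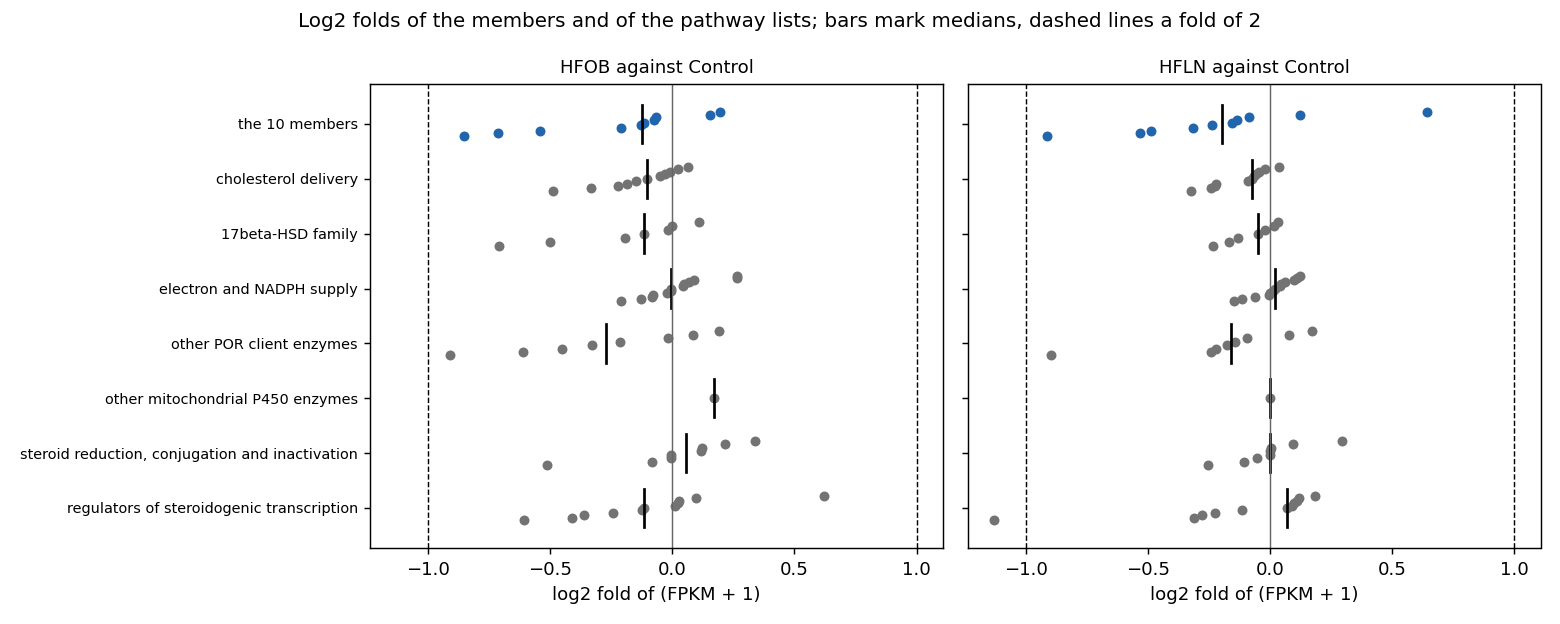
Log2 folds on the log2(FPKM + 1) scale (horizontal axes) of the 10 members and of the described genes of 7 pathway lists, for HFOB and HFLN against Control. Dots are genes (Fdft1 among the enzymes served by Por), bars medians and dashed lines a fold of 2; the members spread from -0.85 to 0.19 in HFOB and from -0.91 to 0.64 in HFLN, and Cebpb is the gene beyond -1.

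Defining markers of the ovarian steroidogenic cells were present in every group. Of the theca markers other than Cyp17a1, 7 had rows of their own, and 4 were higher and 3 lower in each diet group, with log2 folds of -0.36 to 0.07 in HFOB and -0.23 to 0.18 in HFLN. Their summed level was 1361 FPKM in HFOB, 1380 FPKM in HFLN and 1432 FPKM in Control. Most of it was Aldh1a1, at 1093 FPKM in HFOB (240 to 1947), 1071 FPKM in HFLN (339 to 1802) and 1112 FPKM in Control (288 to 1937). Lhcgr, among these 7, was also on the luteal list. Insl3, the theca hormone, shared its row with Jak3 and was left out of the sum. That row stood at 49.7 FPKM in HFOB, 38.5 FPKM in HFLN and 61.2 FPKM in Control. The part of theca cells in the Cyp17a1 values was not tested. Of the granulosa markers other than the members, 9 were described. They were lower in 6 and higher in 3 cases in HFOB and lower in 7 and higher in 2 in HFLN, and summed to 2436 FPKM in HFOB, 2347 FPKM in HFLN and 2799.9 FPKM in Control. Most of these sums was Inha. Its level was 1465 FPKM in HFOB (497 to 2433), 1360 FPKM in HFLN (532 to 2188) and 1712 FPKM in Control (529 to 2895). Inhba, an activin subunit, stood at 50.2 FPKM in HFOB, 63.1 FPKM in HFLN and 74.9 FPKM in Control, while the early follicle hormone Amh stood at 187 FPKM in HFOB, 176.2 FPKM in HFLN and 181.4 FPKM in Control. The part of these cells in the Cyp19a1 values was not tested.

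The 7 described luteal markers summed to 1748 FPKM in HFOB, 1987 FPKM in HFLN and 2318 FPKM in Control, with 6 of 7 lower in HFOB and 2 of 7 lower in HFLN. Sfrp4, a secreted Wnt-binding protein, made up most of these sums, at 975 FPKM in HFOB (371 to 1579), 1056 FPKM in HFLN (397 to 1716) and 1404 FPKM in Control (216 to 2592). Without it, a choice made after the values were seen, the other 6 summed to 774 FPKM in HFOB, 931 FPKM in HFLN and 914 FPKM in Control. Their part in the values of Fdx1 and Cyp11a1 was not tested. Of the genes that define the adrenal cortex, another steroidogenic tissue, Cyp11b1, Cyp11b2, Cyp21a1 and Mc2r stood between 0 and 0.177 FPKM in all groups, Cyp11b2 at 0 in HFOB and Control. Mrap from the same list stood at 113.0 FPKM in HFOB, 118.2 FPKM in HFLN and 159.9 FPKM in Control. Akr1b7, its remaining gene, stood at 1.02 FPKM in HFOB, 0.881 FPKM in HFLN and 1.93 FPKM in Control. Mrap and Akr1b7 were thus lower in each diet group than in Control, with overlapping intervals. Markers of the oviduct and motile cilia differed too, summing to 345 FPKM in HFOB, 526 FPKM in HFLN and 424 FPKM in Control, and all 6 were lower in HFOB and higher in HFLN than in Control. Most of these sums was Ovgp1, at 307 FPKM in HFOB (18.4 to 595), 432 FPKM in HFLN (0 to 937) and 369 FPKM in Control (61.2 to 676). Of 7 adipocyte markers, 4 were higher in HFOB and 2 higher in HFLN than in Control, with median log2 folds of 0.51 and -0.26, and they summed to 265 FPKM in HFOB, 215 FPKM in HFLN and 234.0 FPKM in Control. Lep, the adipocyte hormone leptin, met the call rule in HFOB against both other groups, at 2.101 FPKM in HFOB (0.759 to 3.44), 0.332 FPKM in HFLN (0.0392 to 0.625) and 0.223 FPKM in Control (0 to 0.455). Fabp4, a fatty acid binding protein, stood at 139.3 FPKM in HFOB, 87.2 FPKM in HFLN and 77.2 FPKM in Control. Cfd, which weighs most against these in the sum, stood at 62.2 FPKM in HFOB (0 to 591), 86.4 FPKM in HFLN (0 to 678) and 103.4 FPKM in Control (0 to 744). All 4 rows of erythrocyte markers, of which 2 were merged globin rows, were lower in both diet groups than in Control. The merged row of Hbb-bs stood at 129.8 FPKM in HFOB, 98.2 FPKM in HFLN and 178.6 FPKM in Control, and that of Hba-a1 at 47.3 FPKM in HFOB, 35.6 FPKM in HFLN and 60.0 FPKM in Control. Stromal markers summed to 508 FPKM in HFOB, 503 FPKM in HFLN and 502 FPKM in Control. The part of these tissues and of blood in the members' values was not tested.

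The genes most like Cyp17a1, Cyp19a1 and Star across the 3 groups were found by the Euclidean distance of centred log2(FPKM + 1) among 7214 protein-coding rows of at least 10 FPKM on average. With 3 group values many genes come close, and 8, 13 and 9 rows lay within 0.1 of Cyp17a1, Cyp19a1 and Star. Nearest to Cyp17a1 were Gadd45b at a distance of 0.047, Ddit3 at 0.050 and Hmox1 at 0.054. Ddit3 stood at 55.5 FPKM in HFOB, 53.8 FPKM in HFLN and 106.0 FPKM in Control. Nearest to Cyp19a1 were Clu at 0.025, Tagln2 at 0.030 and Slc7a8 at 0.033. Clu, a secreted chaperone, stood at 856 FPKM in HFOB, 1021 FPKM in HFLN and 1399.7 FPKM in Control. Nearest to Star were Ube2l3 at 0.041, Rab27a at 0.051 and Saa3 at 0.064. Among the members themselves, Cyb5a and Hsd3b1 were closest, at 0.037.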

How the data were processed

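Ovarian RNA of 9 mice, 3 per group, was sequenced from strand-specific messenger RNA libraries, per the labels' protocols. Tools named, without roles or settings, by the submitters' processing notes were Cuffdiff 2.2.1.3, Cufflinks 2.2.1.0, TopHat2 2.1.0 and Trimmomatic 0.32.3, with the build mm10. The sources used here do not give the annotation, the scaling between libraries or the strand setting of the counting. The authors deposited FPKM, 1 value per group with a lower and an upper bound, per the file headers; a test per animal had been planned and could not be made. Of 36886 RefSeq identifiers 99.2% matched RefSeq of GRCm38.p6, which gave the symbols; per symbol the row with the highest mean FPKM was used. Folds used a pseudocount of 1 FPKM. Rows with a status of OK and at least 1 FPKM in a group were tested, and 765 rows that merge several symbols were kept out of the lists. Depth per sample is unknown, so precision is given by the deposited bounds alone. The members and lists were chosen with earlier results of these data known. All members are named; from each list the 2 genes with the widest log2 fold per comparison with Control, and the 3 nearest patterns of Cyp17a1, Cyp19a1 and Star. Others (the 3beta-HSD family, Hsd17b3, markers) were named after their values were seen. The call rule was tested on simulated data. Python 3.11.15, numpy 2.4.6, pandas 2.3.3 and matplotlib 3.10.9 were used. Alternatives were another pseudocount, scale, filter, fold, interval width and summed rows.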

Additional observations from a re-analysis of the deposited data

How the results depend on the processing

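No paired analysis was possible because the table holds 1 value per group and no values of single animals; for the same reason no replicate could be left out. The count of called members was 0 in each comparison with a fold of 1.5, with no demand on the fold, with intervals of 50% of the width, with no filter, with a filter of 5 FPKM, with a pseudocount of 0.1 FPKM and with the protein-coding median set to 0. Because all deposited intervals of the members overlapped, a change of fold, filter or pseudocount alone could not have called any. The intervals of 50% of the width kept the fold of 2, which no member reached. Narrowed intervals with a fold of 1.5, not among the alternatives above, called Cyp17a1 in both diet groups against Control and Cyp19a1 in HFOB against Control. Narrowed intervals without a fold, chosen after the values were seen, gave 2 called members in HFOB against Control, 1 in HFLN against Control and 0 in HFOB against HFLN. With intervals of 50% of the width and a fold of 2, 167, 195 and 155 rows were called in these comparisons, against 62, 48 and 33 with the deposited bounds; narrower intervals overlap less by construction. The other alternatives kept these counts within 1.5 times. The 120 alternative log2 folds of single members moved by at most 0.22, less than a spread drawn from the deposited bounds. That spread took 50% of the distance from a value to its upper bound as the SD, although the confidence level is not given. The 30 values from summed rows could not move, because no member had more than 1 row. Setting the protein-coding median to 0 moved them by at most 0.015, and turned Fdx1 in HFOB against HFLN to 0.0058. Dividing by the protein-coding sum turned 11 small values, the Hsd3b1, Por and Cyb5a values in HFLN, the Hsd3b1 and Cyb5a values in HFOB and 6 values between HFOB and HFLN; the cause of the difference between both scales was not tested. Unknown depth and the pooling of animals limit every value.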

Other observations

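Some genes of the pathway were read only in merged rows. The row of Akr1c18, which inactivates progesterone, and Akr1c12 stood at 1496 FPKM in HFOB (0 to 3029), 1084 FPKM in HFLN (0 to 2614) and 2672 FPKM in Control (0 to 7173), so its intervals reached 0 in every group. Akr1cl, a related reductase, was among the abundant genes of the steroid reduction list, at 1954 FPKM in HFOB (0 to 4692), 1798 FPKM in HFLN (0 to 3778) and 1796 FPKM in Control (0 to 3713). Fdx2, the ferredoxin of iron-sulphur cluster assembly, shared its row with Raver1 and other genes, at 112.2 FPKM in HFOB, 102.3 FPKM in HFLN and 126.8 FPKM in Control. Scarb1, the receptor that takes up cholesterol from high-density lipoprotein, stood at 496 FPKM in HFOB, 558 FPKM in HFLN and 555 FPKM in Control. Lhcgr, the receptor for luteinizing hormone on theca and luteal cells, stood at 103.7 FPKM in HFOB, 143.0 FPKM in HFLN and 133.7 FPKM in Control. Nr5a1, the regulator of most steroidogenic genes, stood at 126.4 FPKM in HFOB, 127.9 FPKM in HFLN and 149.8 FPKM in Control.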
